A study of Mus musculus with 24 samples.

Results

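The D cyclins, their partner kinases and the inhibitors that act on them were followed through myogenic differentiation. The group was chosen by name, 10 genes of the 28109 in the count table: the D cyclins Ccnd1, Ccnd2 and Ccnd3, the kinases Cdk4 and Cdk6, the Cip/Kip inhibitors Cdkn1a, Cdkn1b and Cdkn1c, the Ink4 inhibitor Cdkn2c, and the pocket protein Rb1. All 10 passed the filter on low counts in every fit. Messenger RNA was sequenced from 24 mouse libraries, in 12 groups of 2 replicates. C2C12 cells, an established myoblast line of C3H origin, were grown and differentiated in DMEM. Primary myoblasts (PMs) came from C57/B6 mice aged 3 to 4 weeks and were kept in IMDM GLUTAMAX on matrigel. Both were transfected with a control siRNA against luciferase (siControl) or with siRNA pools against Tead1 and Tead4 (siTead1/4). RNA was taken a day after transfection, before the change to differentiation medium (day 0), and after 3 and 6 days in 2% horse serum. No engineered deletion of a gene is described for any group, and siRNA and day are the only differences given between groups of a cell type. The replicates are described as biological duplicates with nothing more on separate cultures or animals, so the p-values measure only the spread between these samples.

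D cyclins accumulate in response to mitogens and activate Cdk4 and Cdk6, which phosphorylate Rb1 and so free E2F factors to transcribe the genes of S phase. Cip/Kip proteins bind cyclin-kinase complexes, whereas Ink4 proteins bind Cdk4 and Cdk6 themselves. In myoblasts the exit from the cycle is known to go with loss of cyclin D1, gain of p21 (the product of Cdkn1a), cyclin D3 and Rb1, which MyoD helps to induce.

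Libraries held from 25453830 to 52784510 counts in genes. The spread between replicates (biological coefficient of variation) was 0.242 in C2C12 cells and 0.150 in PMs, so equal changes were easier to detect in PMs. The level of a gene in a library is its CPM, the count scaled to library size, or its CPM per kilobase of gene where genes are set against each other. Groups are called without overlap when all libraries of 1 stand above all of the other. With 2 libraries each this also happens without a real difference, and its share over all genes is not given here. The targeted genes had lower means after siTead1/4 on each day in both cell types. Tead4 passed the edgeR test (adjusted p under 0.05) on the first 2 days in C2C12 cells (-2.21 and -1.76 on the log2 scale, with edgeR adjusted p = 0.0360 and 0.0425) and throughout in PMs (-2.36, -2.58 and -1.75, edgeR adjusted p = 2.62e-04, 9.25e-05 and 0.00199). Tead1 passed in PMs on the first 2 days (-1.44 and -1.68, edgeR adjusted p = 0.0211 and 0.0107). It passed on no day in C2C12 cells (-2.46, -1.09 and -0.52, edgeR adjusted p = 0.168, 0.501 and 0.945). In the siTead1/4 C2C12 replicates of day 0 Tead1 stood at 28.9 and 4.50 CPM, a wide spread, against 70.5 and 113 CPM in siControl.

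All 8 myogenic markers were detected in every library, with a summed level of 983 to 12973 CPM. The 7 macrophage markers summed to at most 6.29 CPM. The 7 endothelial markers summed to 0.219 to 1.53 CPM in C2C12 cells, with Emcn at 0 in all of those libraries, and to 3.18 to 16.8 CPM in PMs. The 7 adipocyte markers summed to 1.83 to 47.1 CPM, highest in the day 0 C2C12 libraries. Pparg alone reached 46.9 CPM, and Lep was at 0 in 20 of the 24 libraries. The 8 fibroblast markers summed to 39.3 and 45.6 CPM in siControl PMs at day 0 and to 215 and 247 CPM at day 6. Over all PM libraries Col15a1 averaged 103 CPM, against 0.398 CPM for Dpt and 0.332 CPM for Lum. The fibroblast sum in siControl C2C12 cells was 100.2 and 106 CPM at day 0 and 222 and 456 CPM at day 3. After siTead1/4 it was 90.2 and 139 CPM at day 3. The 7 Schwann cell markers summed to 24.4 and 28.1 CPM in siControl C2C12 cells at day 0 and to 313 and 399 CPM at day 3, Erbb3 being the most abundant of them, with Sox10 at 0 in 10 libraries. The part of other cells in the results was not tested, and in bulk RNA fewer cells of a type and less RNA per cell cannot be told apart.

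Reference sequence near a start site was shown for Ccnd3 (upstream) and Cdkn1a (within the transcript), since it holds words bound by factors of this system. Promoter windows from RefSeq (GRCm38.p6), from 250 bases before to 50 after a start, were matched for 6 of the 10 genes, in 9 windows. Ccnd1, Ccnd2, Cdkn1c and Rb1 had no entry. Windows were searched on both strands for CATTCC (the core of the MCAT element that TEAD proteins bind), for the E-box CAGCTG (a word MyoD binds), and for the E2F words TTTCCCGC, TTTCGCGC, TTTGGCGC and TTTGCCGC. None of these words overlaps another. CATTCC occurred in 1 window of Ccnd3, 17 bases before the start, and in 14.7% of all 32851 windows. CAGCTG occurred in 1 window of Cdkn1a, 38 bases into the transcript, and in 16.3% of all windows. The E2F words were in none of the 9 windows and in 2.26% of all windows. The 250 bases before that Ccnd3 start (chr17:47593217-47593466, plus strand) and the 30 bases around the Cdkn1a word (chr17:29090999-29091028, plus strand) read as follows, with the matched word in capitals.
Ccnd3: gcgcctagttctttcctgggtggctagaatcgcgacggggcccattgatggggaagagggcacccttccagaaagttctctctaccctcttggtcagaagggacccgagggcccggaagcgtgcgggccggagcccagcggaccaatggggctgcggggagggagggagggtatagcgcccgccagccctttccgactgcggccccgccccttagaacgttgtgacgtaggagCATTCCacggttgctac
Cdkn1a: tgatgatacccaactacCAGCTGtggggtg

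The first question was how the 10 genes changed as siControl C2C12 cells differentiated. From day 0 to day 3, 8 of the 10 passed the edgeR quasi-likelihood test at an adjusted p under 0.05, 4 of them rising and 4 falling, where 39.6% of all tested genes passed. The D cyclins exchanged places: Ccnd1 fell and Ccnd3 rose. Cdkn1a and Cdkn1c rose, Rb1 rose, and Cdk4, Cdk6 and Cdkn2c fell. The median log2 fold change over the 10 genes was -0.34, against -0.01 over all genes tested.

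Ccnd1 (ENSMUSG00000070348, mm9 chr7:152115836-152125774, minus strand), the cyclin that mitogens induce, was at 398 and 491 CPM at day 0, 17.1 and 13.6 CPM at day 3 and 10.7 and 12.9 CPM at day 6. Both day 0 libraries stood far above all later ones. The fall to day 3 was 4.90 on the log2 scale (SE 0.30, edgeR adjusted p = 4.07e-06), a 29.8-fold lower level. Exons of Oraov1 on the other strand cover 21.3% of the exonic bases of Ccnd1, and because the libraries carry no strand the reads of the pair cannot be told apart there. Ccnd3 (ENSMUSG00000034165, mm9 chr17:47642000-47736632, plus strand), the D cyclin that persists in myotubes, moved the other way, with 87.5 and 103 CPM at day 0, 524 and 503 CPM at day 3 and 555 and 548 CPM at day 6. Its rise to day 3 was 2.39 (SE 0.35, edgeR adjusted p = 4.92e-04) and the groups did not overlap. Bysl on the other strand covers 15.7% of its exonic bases, where the reads cannot be told apart either. Ccnd2 (ENSMUSG00000000184, mm9 chr6:127075797-127101066, minus strand) was at 55.1 and 50.3 CPM at day 0 and 25.9 and 26.2 CPM at day 3, which did not pass (-1.06, SE 0.42, edgeR adjusted p = 0.0684), and at 22.2 and 14.7 CPM at day 6, which did (-1.55, edgeR adjusted p = 0.0142). That day 6 call was lost without replicate 1 of day 0 (adjusted p = 0.0585) or replicate 2 of day 6 (0.103).

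The composition of the D cyclin pool followed. Per kilobase, Ccnd1 made up 69.7% ± 1.41 (SD, n = 2) of the summed D cyclin level at day 0, Ccnd3 24.8% ± 0.353 and Ccnd2 5.50% ± 1.06. At day 3 Ccnd3 made up 96.3% ± 0.154 and at day 6 97.5% ± 0.177. The sum itself was 170.3 ± 21.8 CPM per kb at day 0 and 236 ± 7.28 at day 3, so the total did not fall with Ccnd1.

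**Figure D1:**
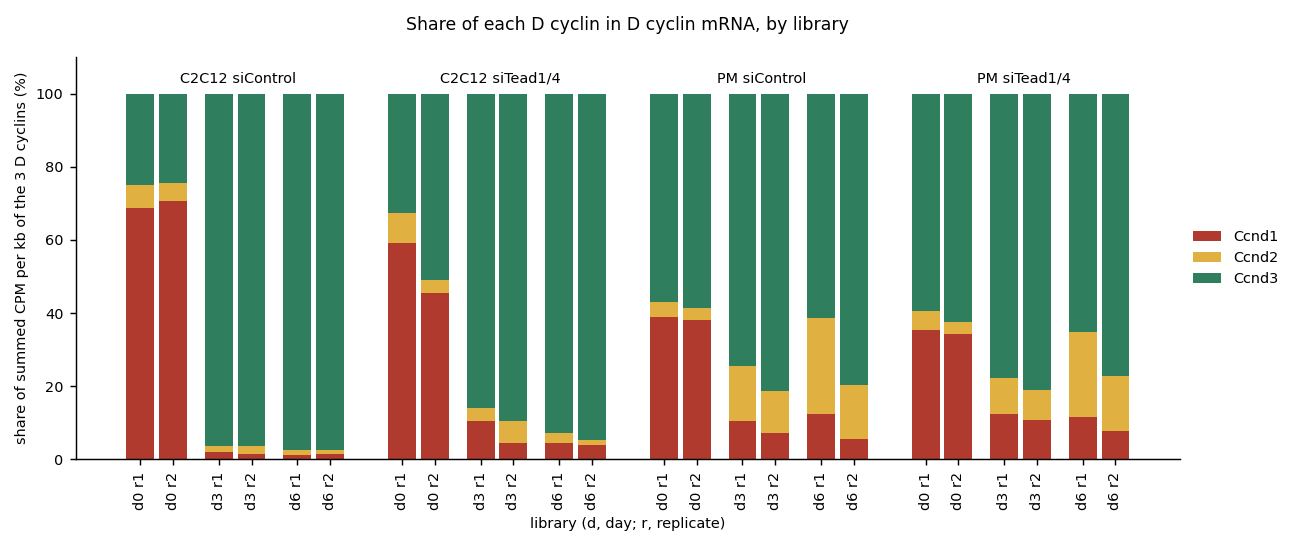
Share of Ccnd1, Ccnd2 and Ccnd3 in the summed CPM per kb of the 3 D cyclins (y axis, %), 1 bar per library, grouped by cell type and siRNA along the x axis (d, day; r, replicate). Ccnd1 led only in the day 0 bars of siControl C2C12 cells and in 1 of the 2 day 0 bars after siTead1/4, and the Ccnd2 share was highest in PMs at day 6, where it averaged 20.5% in siControl cells.

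Cdk4 (ENSMUSG00000006728, mm9 chr10:126500590-126504976, plus strand) was at 477 and 408 CPM at day 0, 233 and 196 CPM at day 3 and 193 and 158 CPM at day 6. It fell by 1.09 to day 3 (SE 0.23, edgeR adjusted p = 0.00387) and by 1.38 to day 6 (edgeR adjusted p = 9.69e-04), with no overlap between day 0 and later libraries. Cdk6 (ENSMUSG00000040274, mm9 chr5:3343893-3523218, plus strand), which binds the same cyclins, was far lower, at 21.6 and 36.5 CPM at day 0, 8.94 and 15.2 CPM at day 3 and 5.82 and 9.32 CPM at day 6. Its fall to day 3 (-1.30, SE 0.46, edgeR adjusted p = 0.0451) was lost without replicate 2 of day 0 (adjusted p = 0.262), replicate 1 of day 3 (0.243) or replicate 2 of day 3 (0.0611), and its fall to day 6 (-1.98, edgeR adjusted p = 0.00711) without replicate 2 of day 0 (0.0569) or replicate 1 of day 6 (0.0654). Per kilobase Cdk4 made up between 93.4% and 98.9% of the 2 kinases in every library of the series. Exons on the other strand overlap both, Tspan31 over 18.6% of those of Cdk4 and Gm17590 over 1.61% of those of Cdk6.

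Cdkn1a (ENSMUSG00000023067, mm9 chr17:29227924-29237667, plus strand), which encodes p21, had the largest rise of the 10 in these cells. It was at 186 and 126 CPM at day 0, 1759 and 1695 CPM at day 3 and 2339.5 and 2363 CPM at day 6, with no overlap between day 0 and either later day. The rise was 3.43 to day 3 (SE 0.33, edgeR adjusted p = 3.95e-05) and 3.87 to day 6 (edgeR adjusted p = 1.81e-05). Cdkn1c (ENSMUSG00000037664, mm9 chr7:150644255-150646955, minus strand), which encodes p57, was low throughout, at 2.87 and 1.46 CPM at day 0, 10.2 and 24.4 CPM at day 3 and 12.9 and 27.7 CPM at day 6. It rose by 2.98 to day 3 (SE 0.67, edgeR adjusted p = 0.00588), which was lost without replicate 2 of day 0 (adjusted p = 0.0561), and by 3.20 to day 6 (edgeR adjusted p = 0.00386). Cdkn1b (ENSMUSG00000003031, mm9 chr6:134870419-134875531, plus strand), which encodes p27, was at 53.9 and 60.4 CPM at day 0, 62.7 and 89.2 CPM at day 3 and 70.8 and 75.2 CPM at day 6. It passed on neither day (edgeR adjusted p = 0.264 and 0.337).

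Cdkn2c (ENSMUSG00000028551, mm9 chr4:109333481-109339794, minus strand), which encodes the Ink4 inhibitor p18, went against the Cip/Kip genes. It was at 52.2 and 47.4 CPM at day 0, 22.2 and 20.7 CPM at day 3 and 24.9 and 29.5 CPM at day 6. The fall was 1.26 to day 3 (SE 0.27, edgeR adjusted p = 0.00498). The fall of 0.91 to day 6 (edgeR adjusted p = 0.0212) was lost in each of the 4 fits with 1 of these libraries left out, with adjusted p from 0.0575 to 0.130. Rb1 (ENSMUSG00000022105, mm9 chr14:73583480-73725629, minus strand) was at 39.0 and 38.1 CPM at day 0, 199 and 225 CPM at day 3 and 162 and 199 CPM at day 6. It rose by 2.42 to day 3 (SE 0.22, edgeR adjusted p = 2.73e-05) and by 2.19 to day 6 (edgeR adjusted p = 4.47e-05). Both later groups lay above every day 0 library. Rcbtb2 and Lpar6 on the other strand cover 8.11% and 6.78% of its exonic bases.

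From day 0 to day 6, 9 of the 10 genes passed, 4 rising and 5 falling (43% of all genes). Between day 3 and day 6, 0 of the 10 passed, and 0% of all genes did with edgeR. Of the 10, 0 had an unadjusted p under 0.05 and 0 passed with DESeq2. These comparisons share their libraries, and the changes at day 3 and day 6 are given side by side for that reason.

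**Figure D2:**
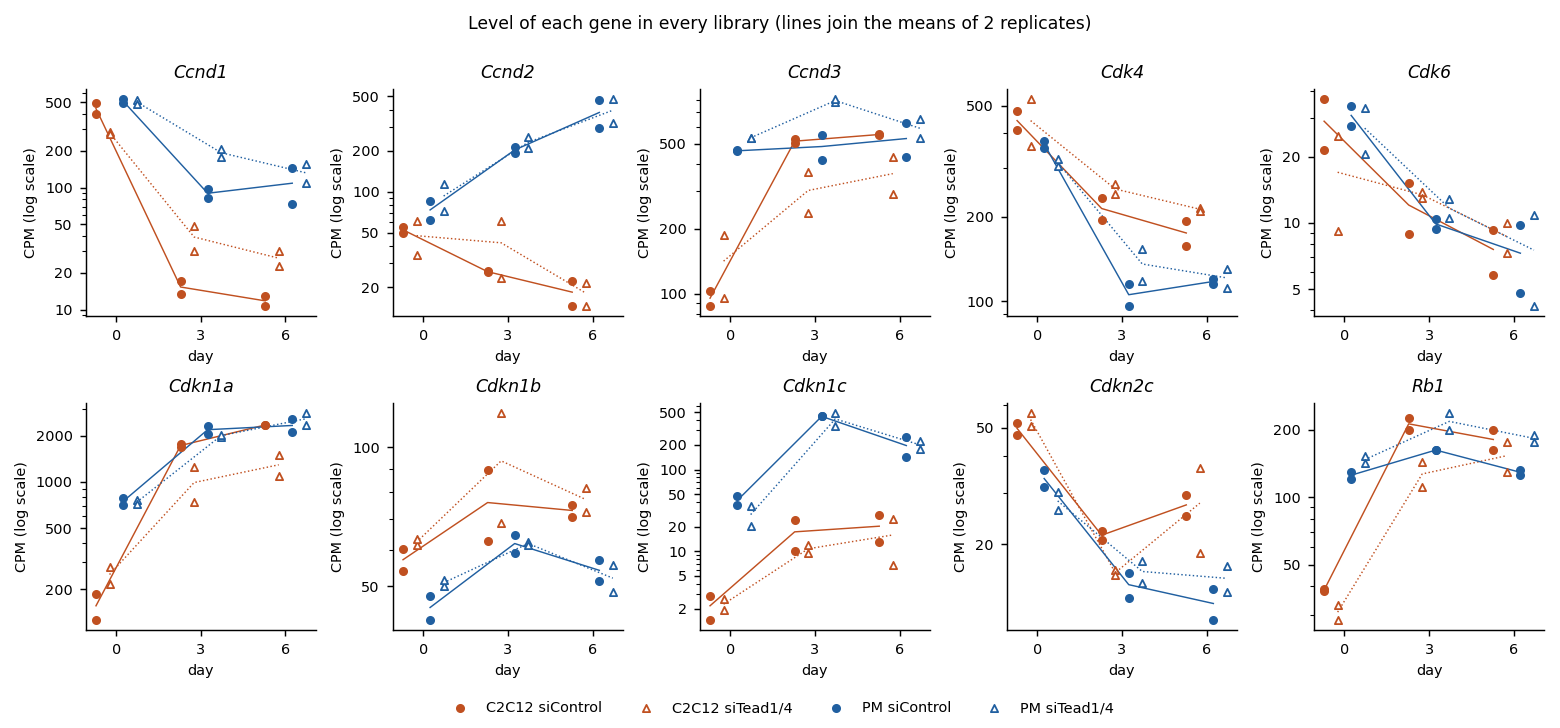
Level of each of the 10 genes in every library (y axis, CPM on a log scale) by day (x axis, points shifted sideways within a day). Filled circles are siControl and open triangles siTead1/4, C2C12 cells are in orange and PMs in blue, and lines join the means of 2 replicates. Ccnd1 fell from 398 and 491 CPM to 17.1 and 13.6 CPM by day 3 in siControl C2C12 cells and from 529 and 497 to 98.2 and 81.8 CPM in PMs.

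In siControl PMs, 9 of the 10 genes passed from day 0 to day 3, 5 rising and 4 falling (58.8% of all genes). Ccnd1, Cdk4, Cdk6 and Cdkn2c fell here too, and Cdkn1a, Cdkn1c, Cdkn1b, Rb1 and also Ccnd2 rose. Ccnd3 alone did not pass. The median log2 fold change of the 10 was 0.16, against 0.01 over all genes.

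Ccnd1 was at 529 and 497 CPM at day 0, 98.2 and 81.8 CPM at day 3 and 144 and 73.1 CPM at day 6. The day 3 and day 6 libraries overlapped and all lay below day 0. The fall to day 3 was 2.57 (SE 0.28, edgeR adjusted p = 2.33e-05) and to day 6 2.31 (edgeR adjusted p = 4.20e-05). Ccnd2 rose, from 85.7 and 61.7 CPM to 214 and 191 CPM at day 3 and 471 and 291 CPM at day 6. The 3 days did not overlap, and the rise was 1.40 to day 3 (SE 0.29, edgeR adjusted p = 0.00190) and 2.30 to day 6 (edgeR adjusted p = 7.23e-05). Ccnd3 was already high at day 0, with 466 and 460.3 CPM, and stood at 421 and 549 CPM at day 3 and 434 and 623 CPM at day 6. The difference was 0.01 at day 3 (SE 0.18, edgeR adjusted p = 0.964) and 0.12 at day 6 (edgeR adjusted p = 0.565), and the days overlapped. Per kilobase Ccnd3 was thus the leading D cyclin of PMs at day 0 (57.8% ± 1.27, SD, n = 2, against 38.6% ± 0.543 for Ccnd1) as well as later (78.0% ± 4.87 at day 3 and 70.5% ± 13.0 at day 6). Ccnd2 went from 3.63% ± 0.727 to 13.1% ± 2.63 and 20.5% ± 8.23.

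Cdk4 fell from 375 and 354 CPM to 96.0 and 115 CPM at day 3 and 115 and 120.2 CPM at day 6. The change was -1.85 at day 3 (SE 0.14, edgeR adjusted p = 2.28e-06) and -1.70 at day 6 (edgeR adjusted p = 3.15e-06). Cdk6 fell from 34.1 and 27.6 CPM to 9.37 and 10.4 CPM at day 3 and 9.77 and 4.79 CPM at day 6, by 1.70 (SE 0.41, edgeR adjusted p = 0.00489) and 2.15 (edgeR adjusted p = 0.00125). Day 0 lay above both later days for each kinase.

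Cdkn1a rose from 789 and 705 CPM to 2325 and 2056 CPM at day 3 and 2105 and 2562 CPM at day 6, by 1.50 (SE 0.14, edgeR adjusted p = 7.64e-06) and 1.58 (edgeR adjusted p = 4.73e-06). Cdkn1c had the steepest rise, from 36.4 and 47.1 CPM to 445 and 448 CPM at day 3 (3.36, SE 0.34, edgeR adjusted p = 1.22e-05), with 142 and 251 CPM at day 6 (2.17, edgeR adjusted p = 1.79e-04). Per kilobase it made up 18.8% ± 1.35 (SD, n = 2) of the summed Cip/Kip level at day 3, when it was 1.12% ± 0.661 in C2C12 cells. From day 3 to day 6 Cdkn1c fell by 1.19 (SE 0.31, edgeR adjusted p = 0.0490), the 1 gene of the 10 that passed between these days (6.25% of all genes). Of the 10, 3 had an unadjusted p under 0.05 there (3547 of all 16144 genes tested). The same number passed with DESeq2 (6.39% of all genes). The Cdkn1c call was lost without replicate 1 of day 3, replicate 2 of day 3 or replicate 1 of day 6.

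Cdkn1b was at 42.3 and 47.7 CPM at day 0, 59.2 and 64.6 CPM at day 3 and 56.9 and 51.4 CPM at day 6. The rise of 0.41 to day 3 (SE 0.11, edgeR adjusted p = 0.00777) was lost without replicate 1 of day 0 (adjusted p = 0.0688) or replicate 2 of day 3 (0.0524), and day 6 did not pass (0.20, edgeR adjusted p = 0.129). Cdkn2c was at 31.3 and 35.8 CPM at day 0, 13.1 and 15.9 CPM at day 3 and 11.0 and 14.0 CPM at day 6. It fell by 1.26 (SE 0.17, edgeR adjusted p = 1.13e-04) and 1.49 (edgeR adjusted p = 3.47e-05), again opposite to the Cip/Kip genes. Rb1 was at 121 and 129 CPM at day 0, 162 and 162 CPM at day 3 and 125 and 133 CPM at day 6. Its rise of 0.32 to day 3 (SE 0.11, edgeR adjusted p = 0.0249) was lost in each of the 4 fits with 1 of these libraries left out (adjusted p from 0.0556 to 0.130), and day 6 stood at -0.02 (edgeR adjusted p = 0.857). From day 0 to day 6, 7 of the 10 genes passed, 3 rising and 4 falling (61.4% of all genes).

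The ratio of summed Cip/Kip to summed Cdk4 and Cdk6 mRNA, per kilobase, puts these changes on 1 scale for each library. In siControl C2C12 cells the day 0 libraries had ratios of 0.474 and 0.395, the day 3 libraries 8.17 and 9.30 and the day 6 libraries 13.2 and 16.1. In siControl PMs it was 2.32 and 2.28, then 30.4 and 23.2, then 20.5 and 25.2. The ratio of summed D cyclins to the kinases rose as well, from 0.759 and 1.04 to 2.43 and 2.71 in C2C12 cells and from 2.20 and 2.25 to 5.90 and 5.92 in PMs by day 3. Both ratios were higher in siControl PMs than in siControl C2C12 cells at each day, with no overlap.

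**Figure D3:**
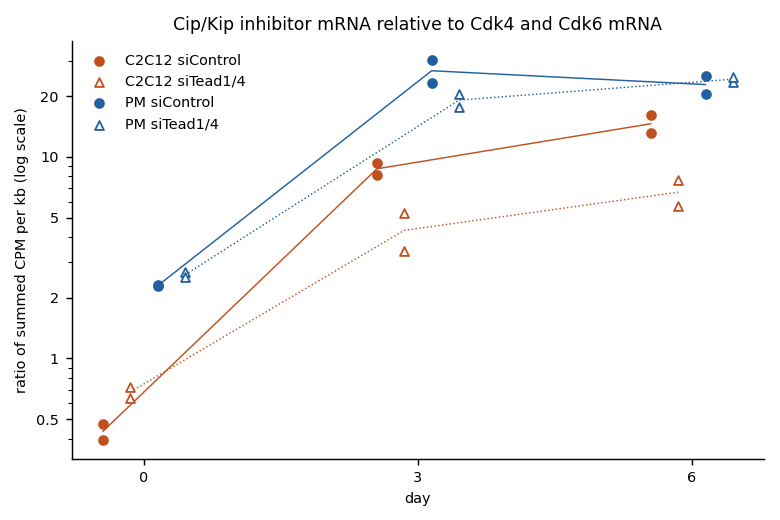
Ratio of summed Cdkn1a, Cdkn1b and Cdkn1c to summed Cdk4 and Cdk6 (y axis, CPM per kb over CPM per kb, log scale) by day (x axis, points shifted sideways within a day), 1 point per library, with lines through the means. The siTead1/4 C2C12 libraries of day 3 (3.40 and 5.24) and day 6 (5.72 and 7.64) lay below the siControl ones (8.17 and 9.30, then 13.2 and 16.1). So did the siTead1/4 PM libraries of day 3 (20.6 and 17.7 against 30.4 and 23.2), while those of day 6 overlapped with siControl. At day 0 the siTead1/4 libraries lay above siControl in C2C12 cells (0.724 and 0.639 against 0.474 and 0.395). The same held in PMs (2.68 and 2.53 against 2.32 and 2.28). These differences in the ratio were not tested.

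The cell types were then compared within siControl, a contrast in which cell type, strain, medium and coating cannot be told apart. At day 0, 4 of the 10 genes were higher in PMs and none lower (40.1% of all genes passed): Ccnd3 by 2.28 (SE 0.29, edgeR adjusted p = 9.04e-06), Cdkn1a by 2.26 (SE 0.25, edgeR adjusted p = 1.61e-06), Cdkn1c by 4.30 (SE 0.61, edgeR adjusted p = 2.79e-05) and Rb1 by 1.70 (SE 0.17, edgeR adjusted p = 5.25e-07). The day 0 libraries are those of the time courses above, so these contrasts are not independent of them. All 14 muscle differentiation genes were higher in day 0 PMs as well, with a median log2 difference of 6.86, whereas of the 18 proliferation genes only Pcna passed, being lower. Summed, the 14 stood at 13142 and 11752 CPM in day 0 PMs and 142 and 61.3 CPM in day 0 C2C12 cells. Day 0 PMs thus already expressed muscle genes before the change of medium. At day 3, 4 of the 10 passed (45.8% of all genes): Ccnd1 (2.55), Ccnd2 (2.96) and Cdkn1c (4.69) were higher in PMs and Cdk4 (-1.02) was lower. At day 6, 6 passed (38% of all genes), with Ccnd1 (3.21), Ccnd2 (4.37) and Cdkn1c (3.28) higher and Cdk4 (-0.58), Cdkn2c (-1.12) and Rb1 (-0.49) lower. The Cdk4 call at day 6 was lost without replicate 1 of the C2C12 group (adjusted p = 0.157) or replicate 1 (0.0998) or 2 (0.0703) of the PM group, and the Rb1 call without replicate 2 of the C2C12 group (0.217) or replicate 1 (0.126) or 2 (0.0789) of the PM group.

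An interaction term, the day 3 change in PMs minus that in C2C12 cells, tested whether the same gene moved differently during differentiation. Of the 10 genes, 5 passed, where 13.6% of all genes did. Ccnd1 fell less in PMs (difference 2.35, SE 0.40, edgeR adjusted p = 6.59e-04). Ccnd2 differed by 2.47 (SE 0.56, edgeR adjusted p = 0.00645), since it rose in PMs and stood at -1.06, short of the threshold, in C2C12 cells. Ccnd3 (-2.37, SE 0.40, edgeR adjusted p = 6.44e-04), Cdkn1a (-1.92, SE 0.34, edgeR adjusted p = 9.31e-04) and Rb1 (-2.09, SE 0.24, edgeR adjusted p = 1.25e-05) rose more in C2C12 cells, and each started lower there. The other 5 genes did not pass, Cdk4 coming nearest (-0.75, SE 0.26, edgeR adjusted p = 0.0696). All 14 muscle differentiation genes also passed on the side of a larger rise in C2C12 cells, with a median difference of -5.57.

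**Figure D4:**
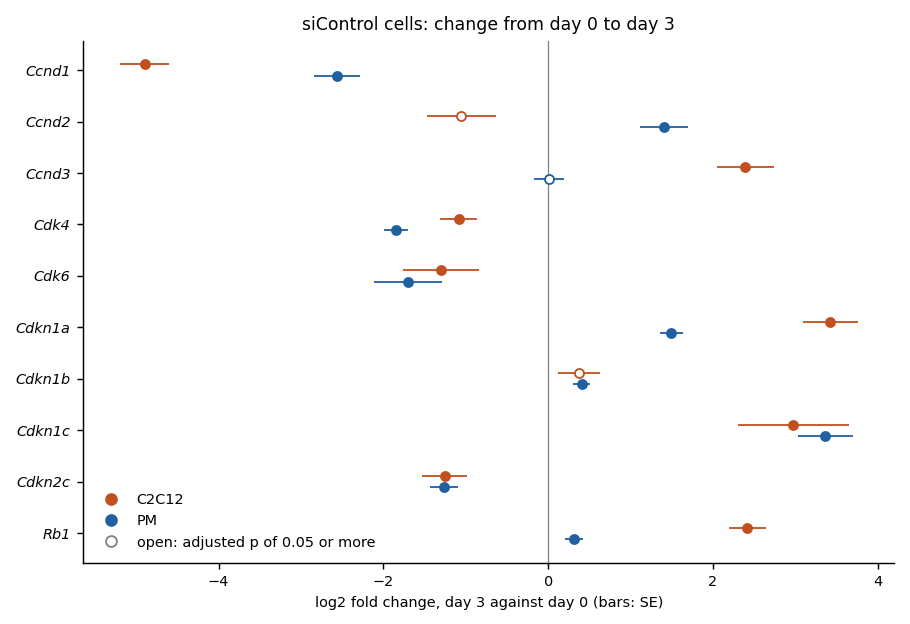
Change from day 0 to day 3 in siControl cells for each gene (x axis, log2 fold change with its SE as bars), C2C12 cells in orange and PMs in blue, with open points for an edgeR adjusted p of 0.05 or more. Ccnd3 stood at 2.39 in C2C12 cells and 0.01 in PMs, and Ccnd2 at -1.06 and 1.40.

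The comparison the study was made for is siTead1/4 against siControl. In C2C12 cells at day 0, 0 of the 10 genes passed with edgeR (0.444% of all genes), 2 had an unadjusted p under 0.05 and 0 passed with DESeq2. Of all 15303 genes tested, 1603 had an unadjusted p under 0.05. Ccnd1 stood lower, at 287 and 278 CPM against 398 and 491 (-0.66, SE 0.25, edgeR adjusted p = 0.378), and Cdkn1a higher, at 218 and 281 CPM against 186 and 126 (0.67, edgeR adjusted p = 0.470). At day 3, 1 of the 10 passed (1.35% of all genes). Ccnd1 was higher, at 48.5 and 30.3 CPM against 17.1 and 13.6, by 1.34 (SE 0.26, edgeR adjusted p = 0.0405). The groups did not overlap, which with 2 libraries each is no test, and the level was still far below that of day 0. The call was lost in each of the 4 fits with 1 of these libraries left out, with adjusted p from 0.0518 to 0.333 and log2 fold changes from 0.97 to 1.65.

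Of the 4 genes that rose in siControl, 3 stood lower after siTead1/4 at day 3 without passing. The other, Cdkn1c, did not pass either and overlapped, at 11.9 and 9.66 CPM against 10.2 and 24.4. Cdkn1a was at 737 and 1245 CPM against 1759 and 1695 (-0.83, SE 0.30, edgeR adjusted p = 0.230), Rb1 at 111 and 143 CPM against 199 and 225 (-0.77, SE 0.21, edgeR adjusted p = 0.116) and Ccnd3 at 237 and 368 CPM against 524 and 503 (-0.79, SE 0.33, edgeR adjusted p = 0.305). None of these 3 overlapped between the groups, which with 2 libraries each is no test. In all, 4 genes had an unadjusted p under 0.05 and 2 passed with DESeq2, Ccnd1 and Rb1. Of all 15303 genes tested, 2180 had such a p, and 3.08% of all genes passed with DESeq2. The siTead1/4 replicates of C2C12 cells were also unlike each other, with an SD of the log2 difference between replicates over genes of 0.737 at day 0 and 0.732 at day 3, where the other groups had 0.417 to 0.629. Of the 14 muscle differentiation genes, Myh3 and Myh8 were lower and passed, and the summed level of all 14 was 8590 and 11949 CPM against 22503 and 25878.

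At day 6, 0 of the 10 passed with edgeR (0.0457% of all genes), 2 had an unadjusted p under 0.05, and Ccnd1 alone passed with DESeq2. Of all 15303 genes tested, 1064 had such a p, and 0.636% of all genes passed with DESeq2. Ccnd1 was at 22.8 and 30.0 CPM against 10.7 and 12.9 (1.17, SE 0.26, edgeR adjusted p = 0.199), Cdkn1a at 1098 and 1489 CPM against 2339.5 and 2363 (-0.86, SE 0.30, edgeR adjusted p = 0.532). Both pairs were without overlap, which with 2 libraries each is no test. The change from day 0 to day 3 was also compared between the siRNAs, and 0 of the 10 differed with edgeR (0% of all genes). There Ccnd1 stood at 2.00 (SE 0.36, edgeR adjusted p = 0.0946), Cdkn1a at -1.51 (SE 0.42, edgeR adjusted p = 0.202) and Ccnd3 at -1.37 (SE 0.47, edgeR adjusted p = 0.290), the 3 with an unadjusted p under 0.05, of which Ccnd1 and Cdkn1a made up the 2 that passed with DESeq2. Of all 15303 genes tested, 1745 had such a p, and 1.4% of all genes passed with DESeq2.

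In PMs at day 0, 0 of the 10 passed with edgeR (7.72% of all genes), 0 had an unadjusted p under 0.05 and 0 passed with DESeq2, and the log2 fold changes lay between -0.57 (Cdkn1c) and 0.33 (Ccnd2). At day 3, 3 of the 10 passed, all higher after siTead1/4 (7.33% of all genes). Ccnd1 was at 208 and 178 CPM against 98.2 and 81.8, by 1.10 (SE 0.27, edgeR adjusted p = 0.0361), Ccnd3 at 784 and 804 CPM against 421 and 549, by 0.70 (SE 0.18, edgeR adjusted p = 0.0412), and Rb1 at 236 and 198 CPM against 162 and 162, by 0.42 (SE 0.11, edgeR adjusted p = 0.0413). None of the 3 overlapped between the groups, which with 2 libraries each is no test. With Ccnd2 included (253 and 208 CPM against 214 and 191) the summed D cyclin level was 444 ± 5.28 CPM per kb (SD, n = 2) against 275 ± 34.1. Cdk4 was at 118 and 154 CPM against 96.0 and 115 (0.36, edgeR adjusted p = 0.160), also without overlap. Cdkn1a (-0.14), Cdkn1b (-0.01) and Cdkn1c (-0.11) did not pass. Cdkn1b and Cdkn1c overlapped between the groups, and Cdkn1a did not, at 1973 and 2036 CPM against 2325 and 2056.

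Each of these 3 calls was lost in at least 3 of the 4 fits with 1 library left out. Such a fit leaves a lone library in a group. A lost call thus cannot show whether it rested on that library or on the number of libraries. Ccnd1 was lost in each of the 4 fits, with log2 fold changes from 0.97 to 1.23. Ccnd3 was lost without replicate 1 of siControl or either replicate of siTead1/4, with values from 0.53 to 0.90 over the 4 fits. Rb1 was lost without either replicate of siControl or replicate 1 of siTead1/4, with values from 0.28 to 0.53. With all 24 libraries in 1 fit, or the compared groups alone, Ccnd1 still passed and Ccnd3 and Rb1 did not.

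At day 6 in PMs, 0 of the 10 passed with edgeR (1.26% of all genes). Rb1 was at 189.5 and 176 CPM against 125 and 133 (0.50, SE 0.11, edgeR adjusted p = 0.0514), the 1 gene with an unadjusted p under 0.05 and the 1 that passed with DESeq2. Of all 16144 genes tested, 1914 had such a p, and 2.1% of all genes passed with DESeq2. Ccnd1 was at 157 and 108 CPM against 144 and 73.1 (0.29, edgeR adjusted p = 0.790), with overlap. The change from day 0 to day 3 differed between the siRNAs for 0 of the 10 with edgeR (0.378% of all genes), with 2 at an unadjusted p under 0.05, Ccnd1 (1.13, SE 0.38, edgeR adjusted p = 0.221) and Cdk4 (0.58, edgeR adjusted p = 0.222), and 0 with DESeq2. Of all 16144 genes tested, 2170 had such a p. In a fit with replicate number as a block, given below, Cdkn1c passed at day 0, Rb1 at day 6 and Ccnd1 for this change.

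**Figure D5:**
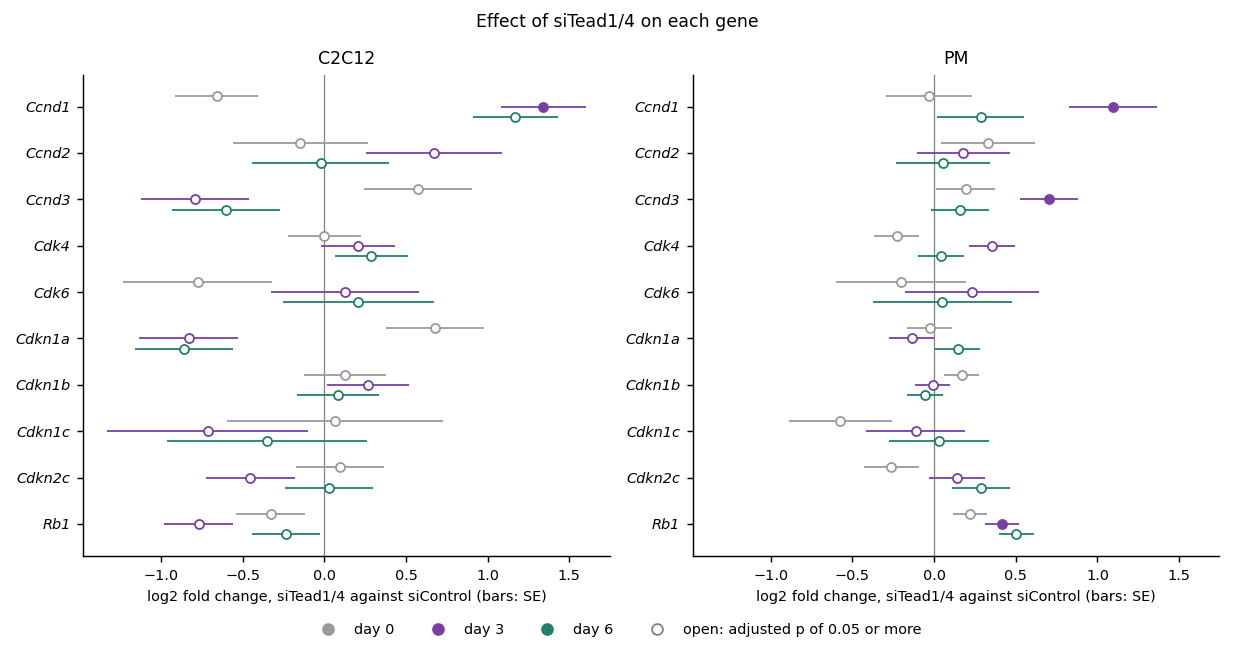
Effect of siTead1/4 on each gene (x axis, log2 fold change against siControl with its SE as bars) in C2C12 cells (left) and PMs (right) at day 0 (grey), day 3 (purple) and day 6 (green), with open points for an edgeR adjusted p of 0.05 or more. Filled points are Ccnd1 in both panels at day 3 (1.34 and 1.10) and, in PMs at day 3, Ccnd3 (0.70) and Rb1 (0.42).

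The siTead1/4 effect was compared between the cell types as an interaction. At day 3, 1 of the 10 passed (1.31% of all genes): Rb1, lower in C2C12 cells and higher in PMs, with a difference of 1.17 (SE 0.23, edgeR adjusted p = 0.0198). The call was lost without replicate 2 of siControl C2C12 cells (adjusted p = 0.107), replicate 1 (0.0834) or 2 (0.0884) of siControl PMs or replicate 1 of siTead1/4 PMs (0.116), all of day 3. Ccnd3 went in opposite directions as well (1.48, SE 0.40, edgeR adjusted p = 0.0845). With DESeq2 it passed beside Rb1, 2 of the 10 (2.22% of all genes). For Ccnd1 the difference was -0.26 (SE 0.39, edgeR adjusted p = 0.872). At day 0, 0 of the 10 passed with edgeR (0.00591% of all genes), 1 had an unadjusted p under 0.05 (725 of all 16926 genes tested) and 0 passed with DESeq2. At day 6, 0 passed with edgeR (0.0354% of all genes), 3 had an unadjusted p under 0.05 (Cdkn1a 1.01, Rb1 0.74, Ccnd1 -0.88) and 0 passed with DESeq2. Of all genes tested, 916 had such a p.

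The other genes of the G1/S transition gave the setting for these changes. Of 27 listed (E cyclins, Cdk2, pocket proteins, E2F factors, licensing factors and the remaining Ink4 genes), 25 were tested in C2C12 cells and all 27 in PMs. From day 0 to day 3 in siControl, 14 fell and 1 rose (E2f2) in C2C12 cells, with a median log2 fold change of -1.01, and 19 fell and 3 rose in PMs, with a median of -1.18, where the median over all genes was -0.01 and 0.01. Of all genes tested, 39.6% and 58.8% passed. From day 0 to day 6 the counts were 15 down and 2 up in C2C12 cells and 18 down and 3 up in PMs. Of all genes tested, 43% and 61.4% passed. Between the cell types in siControl, day 0 PMs had 6 of these genes higher and 2 lower, day 3 PMs 7 higher and 4 lower, and day 6 PMs 5 higher and 8 lower. Of all genes, 40.1%, 45.8% and 38% passed on these days. Of the most abundant 4, the E2F partner Tfdp1 fell in both (-1.26 and -1.19) and so did the S phase cyclin Ccna2 (-3.35 and -3.54). The pocket protein Rbl2 rose in PMs (0.95) and stood at 0.80 in C2C12 cells without passing (edgeR adjusted p = 0.0724), and the repressor E2f4 fell in PMs (-0.54) and stood at 0.09 in C2C12 cells. All 18 proliferation genes fell in both cell types, with medians of -3.32 and -3.42. All 14 muscle differentiation genes rose in C2C12 cells (median 7.95) and 13 in PMs (median 2.41), Myog being the exception.

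After siTead1/4 few of the G1/S genes passed. In C2C12 cells at day 3 Cdk2, the kinase of E cyclins, was lower (-0.85, edgeR adjusted p = 0.0420) and no other gene of the 25 passed. Of all genes, 1.35% passed there. In PMs, Rbl2 was higher at day 0 (0.61, edgeR adjusted p = 0.0194) and E2f1, which Rb1 restrains, was higher at day 3 (0.81, edgeR adjusted p = 0.00548). Of all genes, 7.72% passed in PMs at day 0 and 7.33% at day 3. Of the 18 proliferation genes, Mcm2, Mcm7 and Rrm2, which act in DNA replication and nucleotide synthesis, were lower in PMs at day 0 and passed.

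Cdkn1a is also induced by p53, so 12 other p53 targets were followed. In siControl from day 0 to day 3, 3 rose (Sesn1, Trp53inp1 and Plk2) and 3 fell (Bax, Gdf15 and Zmat3) in C2C12 cells, and 3 rose (Sesn1, Phlda3 and Btg2) and the same 3 fell in PMs. These counts stood near the share over all genes, 39.6% in C2C12 cells and 58.8% in PMs. Of the most abundant 4, Ccng1 (-0.13 in C2C12 cells and 0.58 in PMs) and Mdm2 (-0.01 and 0.06) passed in neither, Plk2 only in C2C12 cells (1.21) and Phlda3 only in PMs (0.93). The interaction term for these 4 genes did not pass (edgeR adjusted p from 0.0761 to 0.843). After siTead1/4 in PMs, Sesn1, Trp53inp1 and Btg2 were higher at day 0 and Sesn1 at day 3 (7.72% and 7.33% of all genes passed).

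Over all 12 groups the genes differed widely in range. Cdkn1c spanned a 206-fold range of group means, Ccnd1 43.4-fold, Ccnd2 21.8-fold and Cdkn1a 16.5-fold, while Ccnd3 (8.35-fold), Rb1 (7.07-fold), Cdkn2c (4.27-fold), Cdk6 (4.24-fold) and Cdk4 (4.20-fold) spanned less and Cdkn1b the least, 2.08-fold. Ccnd1 was highest in siControl PMs at day 0 and lowest in siControl C2C12 cells at day 6, and 4 of its 11 neighbouring pairs in the order of groups overlapped. Ccnd2 was highest in siTead1/4 PMs at day 6, and every PM group lay above every C2C12 group mean. Ccnd3 was highest in siTead1/4 PMs at day 3 (794 CPM on average) and lowest in siControl C2C12 cells at day 0 (95.1 CPM). Among neighbours, 10 of the 11 pairs overlapped for Cdk6 and 9 for Cdkn1b, so the order of their groups is mostly within the spread, 7 for Ccnd2, Ccnd3, Cdkn1c, Cdkn2c and Rb1, 6 for Cdkn1a and 5 for Cdk4.

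The genes nearest in pattern were found by the root mean square difference of log2 CPM over the 12 group means, each gene centred on its own mean, among 16926 genes. The nearest to Ccnd1 were Celf4 (0.44), Hmga1 (0.57) and 4632434I11Rik (0.67), where the median gene lay at 1.94. For Ccnd2 they were Erc2 (0.33), Ldb2 and Gm3636, and for Ccnd3 Neil1 (0.25), Sik1 (0.27) and Gm17407. Rb1 lay nearest to Chrnb1 (0.24), a subunit of the acetylcholine receptor of muscle, then to Sik1 (0.25) and Gab2, so that Sik1 stood among the nearest of both Ccnd3 and Rb1. For Cdkn1a they were Neurl1a (0.23), Dnajb5 and Mtss1l. For Cdkn1c they were Asb15 (0.47), Chchd10 and Cox7a1, the last a subunit of cytochrome c oxidase found in muscle. The kinases had close neighbours, Cdk4 with D15Ertd621e (0.10), Gm6180 and Tcf3 and Cdk6 with Snord58b (0.21), Ctbp2 and Rrp1b. Cdkn2c had Cchcr1 (0.19) and Amd1. Cdkn1b, which varied least, had Pi4kb (0.09), Tpt1 and Tgfbrap1, where the median gene lay at 0.64.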

How the data were processed

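Poly-A RNA was sequenced with an unstranded kit. Per the study's methods and the submitters' processing notes, the reads were aligned to mm9 with TopHat2 2.0.10 and Bowtie2 2.1.0 and counted with HTSeq 0.6.1, and the authors deposited raw read counts per gene, which were used here. Their normalised columns (DESeq2 1.8.1) and the columns of 12 further libraries (36 columns over all measures) were not used. Gene lengths came from the deposited table. How reads on overlapping genes were counted is not given in the sources used here, so antisense overlaps are named beside the genes.

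Counts were tested with edgeR 4.0.16 (R 4.3.3) by the quasi-likelihood test, with filterByExpr, TMM scaling and Benjamini-Hochberg adjustment over all tested genes. A gene passed at an adjusted p under 0.05. The 12 libraries of a cell type, in 6 groups, entered 1 fit (15303 genes in C2C12 cells and 16144 in PMs), and all 24 libraries, in 12 groups, entered the fit for contrasts between cell types (16926 genes). The log2 fold changes and SE are those of edgeR, and levels are TMM-scaled CPM over all 24 libraries. The edgeR and DESeq2 1.42.0 steps were tested on simulated data. Alternatives were DESeq2, its size factors in edgeR, no filter, a replicate block, other sets of libraries in the fit, and each library left out. The 10 genes and all gene lists were chosen with earlier results of these data known. Named were all 10 genes, Tead1 and Tead4, the 3 genes nearest in pattern (prior count 2) to each, of every other list at most the 4 most abundant genes and markers at 0, and, chosen after their values were seen, list genes that passed a test or stood apart. One gene near in pattern is not reported here. Plots were drawn with matplotlib 3.10.9.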

Additional observations from a re-analysis of the deposited data

Results flagged for a closer look

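Differences between the cell types under the same contrast were flagged by a test of the difference itself, the interaction term of the fit over all 24 libraries. For the change from day 0 to day 3 in siControl cells, PMs minus C2C12 cells, 5 genes were flagged. Ccnd1 differed by 2.35 on the log2 scale (edgeR adjusted p = 6.59e-04) and Ccnd2 by 2.47 (edgeR adjusted p = 0.00645). Ccnd3 differed by -2.37 (edgeR adjusted p = 6.44e-04), Cdkn1a by -1.92 (edgeR adjusted p = 9.31e-04) and Rb1 by -2.09 (edgeR adjusted p = 1.25e-05). For the effect of siTead1/4 at day 3, Rb1 was flagged with a difference of 1.17 (edgeR adjusted p = 0.0198), from -0.77 in C2C12 cells to 0.42 in PMs. Cell type, strain, medium and coating differ together and cannot be told apart. Groups of 2 replicates are too small for a search for outlying samples.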

How the results depend on the processing

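No call changed direction under any alternative. DESeq2 gave the same side of the threshold as edgeR for 200 of 210 values, and a fit without the filter for 199. Of the 58 values that passed, some no longer did when 1 library was left out, among them every siTead1/4 call. Leaving a lone library in a group assumes that it varies like the other groups. The 5 differences between the cell types in the day 3 change of siControl passed in all 13 alternatives. Counts of the 10 genes that moved by over 1.5 times were as follows. For siTead1/4 in C2C12 cells at day 3 (1 gene), DESeq2, no filter and all 24 libraries in 1 fit each gave 2 and the compared groups alone 0. At day 6 (0), DESeq2 and no filter gave 1. For the siTead1/4 effect on the day 3 change in C2C12 cells (0), DESeq2 and all 24 libraries gave 2 and no filter 3. For siControl PMs from day 3 to day 6 (1), DESeq2 gave 3, no filter 2, and all 24 libraries or the compared groups alone 0. For siTead1/4 in PMs at day 3 (3), all 24 libraries or the compared groups alone gave 1, at day 6 (0) DESeq2 and no filter gave 1, and for the effect on the day 3 change (0) no filter and the compared groups alone gave 1. For the difference of the siTead1/4 effect between cell types at day 3 (1), DESeq2 and no filter gave 2 and the compared groups alone 0. The cause of these shifts was not tested. With 1 library left out the counts ranged from 0 to 0 for siTead1/4 in C2C12 cells at day 3, from 0 to 1 for its effect on the day 3 change, from 0 to 1 for PMs from day 3 to day 6, from 0 to 1 for siTead1/4 in PMs at day 3 and from 0 to 1 for the difference between cell types at day 3.

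Replicate numbers were shared between groups as labels. Within a cell type, the library codes in the titles run in 1 series for each replicate number. The deviations of same-numbered libraries correlated from -0.17 to 0.47 over 15 pairs of groups in C2C12 cells. In PMs they correlated from 0.05 to 0.50, and 14 of the 15 were over 0.1, a hint of pairing that the labels do not state. The numbers were not taken as pairs in the main fits, since not every correlation was over 0.1. With a block for them, 2216 of all genes passed for siTead1/4 in PMs at day 3, against 1184 without it. With a replicate block, the count was 2 for PMs from day 3 to day 6 (Ccnd2 added, adjusted p = 0.00201), 1 for siTead1/4 in PMs at day 0 (Cdkn1c, 0.0409), 1 at day 6 (Rb1, 0.0210), 1 for its effect on the day 3 change (Ccnd1, 0.0385) and 2 for the difference between cell types at day 3 (Ccnd3 added, 0.0180). Cdkn2c also passed between the cell types at day 0 (0.0311) and at day 3. The calls of Cdk6 in C2C12 cells from day 0 to day 3 (adjusted p = 0.0520) and of Rb1 between the cell types at day 6 (0.0931) were lost under the block. How far depth limits the calls was not tested, and the lowest count of Cdkn1c in a siControl C2C12 library was 82.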

Other observations

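The Ink4 genes Cdkn2a and Cdkn2b, which inhibit Cdk4 and Cdk6 as Cdkn2c does, were looked at after their values were seen. In C2C12 cells no library held more than 2 counts of Cdkn2a or more than 1 count of Cdkn2b, and neither passed the filter there. In PMs the mean levels over the 12 libraries were 38.6 CPM and 38.9 CPM. In siControl PMs Cdkn2a fell by 1.18 from day 0 to day 3 (edgeR adjusted p = 0.0344), while Cdkn2b stood at 0.13 (edgeR adjusted p = 0.565). The Ink4 gene Cdkn2d was tested in both cell types and rose in PMs (0.77, edgeR adjusted p = 0.0122) and stood at -1.01 in C2C12 cells (edgeR adjusted p = 0.175). The test of that difference between the cell types gave 1.79 (edgeR adjusted p = 0.0595). After siTead1/4 in PMs, Cdkn2a stood at 0.29 and 0.31 on days 0 and 3, Cdkn2b at 0.62 and -0.12 and Cdkn2d at -0.53 and -0.40, and none of these passed (edgeR adjusted p from 0.0618 to 0.752).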
